A study of Mus musculus with 9 samples.

Results

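Nnt and 9 genes of the NRF2 antioxidant programme, Gclc, Gclm, Nqo1, Hmox1, Txnrd1, Srxn1, Gsr, Slc7a11 and Nfe2l2, were read in RNA sequencing of mouse skin. They were chosen by name, with earlier results of these data known. All 10 were found in the gene tables, and they make up 10 of the 49585 genes listed there. There were 9 libraries, 3 from C57BL/6 skin, 3 from BALB/c skin and 3 labelled IL-6 KO, whose strain is given as C57BL/6. The mice were shipped from Jackson aged 4 to 5 weeks, rested for 2 weeks and were 6 weeks old at the start. All were shaved on day 0, were left untreated for 7 days and gave skin on day 8. The protocol counts 3 mice of C57BL/6, 3 of BALB/c and 6 that lack IL-6, and no label ties a library to a single mouse. The p-values thus measure the spread among the libraries at hand, a spread that may be partly technical. The labels state neither the C57BL/6 sub-strain nor the Il6 allele. Exon reads of Il6 ran against the labels in IL-6 KO replicates 1 and 2. They numbered 6, 24 and 1 in the IL-6 KO-labelled libraries and 0 to 2 in each of the others. Intron reads of Il6 numbered 7, 12 and 5 in the IL-6 KO-labelled libraries and 0 in each of the others. That group is thus called here by its label. The tables do not show which part of Il6 these reads cover, so reads from outside a deleted stretch cannot be told apart from reads of an intact gene.

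NRF2, the product of Nfe2l2, is a transcription factor that KEAP1 marks for destruction until oxidants or electrophiles modify KEAP1. Freed NRF2 pairs with small MAF proteins on antioxidant response elements and drives genes for glutathione synthesis, thioredoxin recycling, quinone reduction and haem breakdown, and in skin it is known for protecting keratinocytes against ultraviolet light and reactive chemicals. NNT, the product of Nnt, sits in the inner mitochondrial membrane and uses the proton gradient to make NADPH, which the glutathione and thioredoxin systems consume. Nnt is not a classical NRF2 target. A multi-exon deletion in Nnt is known in the C57BL/6J sub-strain. The gene tables hold no reads by exon, so which allele these mice carried was not tested.

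The 9 libraries held 3843953 to 6882193 exon reads each, with the 3 lowest totals in the IL-6 KO-labelled libraries. Gene biotypes are listed in the C57BL/6 and BALB/c tables alone, so group and file layout cannot be told apart. Krt14, which defines basal keratinocytes, had 6505 to 16894 reads in each library. BALB/c replicate 2 stood apart by 130 reads of Xist, against at most 5 in any other library. Only 2 of the 130 mapped uniquely, so their origin is uncertain. Sums of 10 growing hair follicle markers were 57172, 14837 and 40781 CPM (read counts scaled to library size) in the IL-6 KO-labelled libraries, and 9.13 to 630 CPM in the other 6. Among replicates, the chi-square statistic per degree of freedom ran from 4.35 to 47.2, the highest between the first and second IL-6 KO-labelled libraries, so that no pair was within sampling noise.

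The bases upstream of the start are shown for 5 members, because Slc7a11, Gclm, Srxn1 and Txnrd1 were higher in the IL-6 KO-labelled libraries while Nfe2l2 was not called. RefSeq promoter windows (GRCm38.p6, 250 bases before to 50 after a start) matched 6 of the 10 members, and the stretches below are the 250 bases before the start, 5′ to 3′ on the gene's strand. Capitals mark matches to 2 forms of the antioxidant response element core, TGACNNNGC and TGAGNNNGC, searched on both strands. The second form was added after the windows had been seen.
Slc7a11, chr3:50443614-50443863, minus strand: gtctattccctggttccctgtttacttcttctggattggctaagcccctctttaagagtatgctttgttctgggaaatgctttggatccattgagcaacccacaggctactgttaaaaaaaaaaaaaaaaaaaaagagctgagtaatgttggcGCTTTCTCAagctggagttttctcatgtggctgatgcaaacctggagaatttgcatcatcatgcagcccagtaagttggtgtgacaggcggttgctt
Gclm, chr3:122245307-122245556, plus strand: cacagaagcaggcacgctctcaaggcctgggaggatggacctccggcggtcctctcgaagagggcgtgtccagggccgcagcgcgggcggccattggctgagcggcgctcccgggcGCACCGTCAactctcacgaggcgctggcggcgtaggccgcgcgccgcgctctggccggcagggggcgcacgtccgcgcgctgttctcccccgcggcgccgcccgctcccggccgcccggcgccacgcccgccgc
Srxn1, chr2:152105274-152105523, plus strand: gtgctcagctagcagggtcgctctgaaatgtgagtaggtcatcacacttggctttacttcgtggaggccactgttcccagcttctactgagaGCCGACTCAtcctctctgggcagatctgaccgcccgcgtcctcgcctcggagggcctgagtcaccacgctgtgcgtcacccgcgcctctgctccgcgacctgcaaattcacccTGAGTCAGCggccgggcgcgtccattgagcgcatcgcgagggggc
Txnrd1, chr10:82858956-82859205, plus strand: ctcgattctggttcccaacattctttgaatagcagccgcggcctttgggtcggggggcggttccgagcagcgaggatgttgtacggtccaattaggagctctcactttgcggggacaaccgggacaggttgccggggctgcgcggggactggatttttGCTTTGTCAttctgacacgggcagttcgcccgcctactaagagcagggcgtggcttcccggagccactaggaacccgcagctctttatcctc
Nfe2l2, chr2:75704664-75704913, minus strand: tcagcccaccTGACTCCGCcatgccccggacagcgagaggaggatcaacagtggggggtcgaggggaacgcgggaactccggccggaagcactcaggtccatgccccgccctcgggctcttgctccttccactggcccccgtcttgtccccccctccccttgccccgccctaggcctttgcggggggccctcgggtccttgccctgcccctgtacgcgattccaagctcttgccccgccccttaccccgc

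TGACNNNGC was found in 4 of the 6 members with a window: Gclm at -134, Txnrd1 at -92, Nfe2l2 at -240 and Srxn1 at 29, counted from the first base of the transcript to the first base of the match. The Srxn1 match, GCTAGGTCA, lies after the start and is not in the stretch above. TGAGNNNGC was found in Srxn1 at -158 and -45 and in Slc7a11 at -97. Counted by gene as for the members, 14.0% of the 27025 genes with a window held the first form in at least 1 window and 19.8% the second. By window the shares were 12.4% and 17.7% of 32851. The Nqo1 window and the other Txnrd1 windows held neither form and are not shown, so every stretch shown holds a match. Slc7a11 matched only the form that was added later. Whether matches go with the differences between groups was not tested. A match describes letters only, and no binding was measured here.

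Nnt separated the 3 groups. This gene (ENSMUSG00000025453, GRCm38 chr13:119335448-119408997, minus strand) had exon read counts of 190, 245 and 172 in C57BL/6, 430, 616 and 586 in BALB/c, as opposed to 38, 83 and 42 in the IL-6 KO-labelled libraries. Scaled to library size, these were 29.1, 36.5 and 31.9 CPM in C57BL/6, 68.3, 102 and 94.8 CPM in BALB/c, and 10.03, 16.9 and 8.90 CPM in the IL-6 KO-labelled libraries. Each BALB/c library was above each C57BL/6 library, each C57BL/6 library was above each IL-6 KO-labelled library, and no groups overlapped. The means were 32.5 ± 3.70, 88.5 ± 17.8 and 11.9 ± 4.31 CPM (SD, n = 3 each).

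Nnt was 2.72-fold higher in BALB/c than in C57BL/6, a log2 fold change of 1.44 ± 0.231 (SE, adjusted p = 0.0108, edgeR quasi-likelihood test, Benjamini-Hochberg adjustment over 14415 genes, called at 0.05). It was lower by 2.71-fold in the IL-6 KO-labelled libraries than in C57BL/6 (log2 fold change -1.44 ± 0.252, adjusted p = 0.00267, edgeR). Against BALB/c the difference was 7.36-fold (log2 fold change -2.88 ± 0.254, adjusted p = 0.000217, edgeR). The BALB/c call was lost without BALB/c replicate 2, the library with Xist reads (log2 fold change 1.34, adjusted p = 0.0565), and without BALB/c replicate 3, C57BL/6 replicate 1 or C57BL/6 replicate 3 (adjusted p = 0.0572, 0.0571 and 0.0546). Over 16 alternatives its adjusted p ran from 2.60e-06 to 0.0572 and its log2 fold change from 1.34 to 1.61. Among the IL-6 KO-labelled libraries, replicate 2 had the highest Nnt level and the lowest sum of follicle markers, and without it the log2 fold changes were -1.78 against C57BL/6 and -3.23 against BALB/c.

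Reads in Nnt introns, which come mostly from unspliced transcripts, numbered 38, 33 and 20 in C57BL/6, 51, 47 and 58 in BALB/c, against 11, 24 and 14 in the IL-6 KO-labelled libraries. Scaled to intron reads, the means were 66.1 ± 13.6, 104 ± 23.6 and 42.3 ± 15.9 CPM (SD, n = 3 each). C57BL/6 and BALB/c did not overlap on this scale, while C57BL/6 and the IL-6 KO-labelled libraries did. The intron log2 fold change was 0.63 ± 0.275 for BALB/c against C57BL/6 (SE, adjusted p = 0.205, edgeR) and -0.64 ± 0.313 for the IL-6 KO-labelled libraries against C57BL/6 (adjusted p = 0.154). Only the IL-6 KO-labelled libraries against BALB/c passed the test for Nnt introns, at -1.28 ± 0.298 (adjusted p = 0.00626, edgeR).

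The log2 ratio of exon to intron reads of Nnt was 2.32, 2.89 and 3.10 in C57BL/6, 3.08, 3.71 and 3.34 in BALB/c, compared with 1.79, 1.79 and 1.58 in the IL-6 KO-labelled libraries. Each IL-6 KO-labelled library lay below the other 6, and the C57BL/6 and BALB/c libraries overlapped. The IL-6 KO-labelled libraries were lower by 1.05 than C57BL/6 and by 1.65 than BALB/c on the log2 scale (exact permutation test, two-sided p = 0.1 in both, the smallest that 3 against 3 libraries allow). BALB/c was higher than C57BL/6 by 0.60 (exact permutation test, two-sided p = 0.2). Over all genes, introns held 5.73% to 7.09% of reads in C57BL/6, 6.90% to 8.87% in BALB/c and 7.80% to 8.84% in the IL-6 KO-labelled libraries. The Nnt ratio was not adjusted for this share, and how much of its differences is particular to Nnt was not tested. Reads that cross an exon-exon junction made up 47.7% to 58.5% of Nnt exon reads in the C57BL/6 and BALB/c libraries, and 50.0%, 63.9% and 35.7% in those labelled IL-6 KO.

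**Figure D1:**
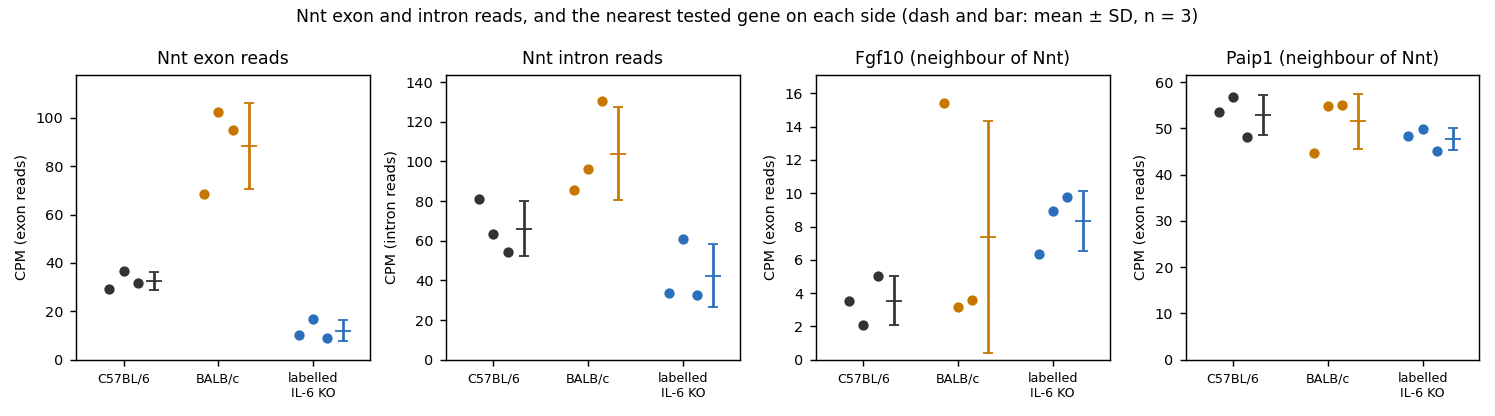
Level of Nnt in exon reads and in intron reads, and of the nearest tested gene on each side, in CPM on the vertical axes, with 1 point per library and a dash and bar for the mean ± SD of 3 libraries. In exon reads the BALB/c libraries (68.3 to 102 CPM) lie above the C57BL/6 libraries (29.1 to 36.5 CPM) and those labelled IL-6 KO below them (8.90 to 16.9 CPM), while Paip1 lies between 44.6 and 56.8 CPM in each library.

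The neighbours of Nnt on chromosome 13 did not pass the test in any comparison. Paip1 (chr13:119428601-119458218), which encodes a partner of the poly(A)-binding protein, had 53.5, 56.8 and 48.2 CPM in C57BL/6, 44.6, 54.9 and 55.0 in BALB/c, against 48.3, 49.8 and 45.1 in the IL-6 KO-labelled libraries. Its log2 fold changes were -0.04, -0.15 and -0.11 in BALB/c against C57BL/6, in the KO-labelled group against C57BL/6 and in that group against BALB/c (adjusted p = 0.906, 0.390 and 0.519, edgeR). Fgf10 (chr13:118669791-118792115), a growth factor gene on the other side, ranged from 2.08 to 15.4 CPM, with log2 fold changes of 1.07, 1.25 and 0.18 in the same order (adjusted p = 0.369, 0.139 and 0.829, edgeR).

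The 3 genes that supply glutathione synthesis were higher in the IL-6 KO-labelled libraries than in both other groups. Slc7a11 (chr3:49892526-50443614) encodes the cystine importer xCT, and Gclc (chr9:77754535-77794485) and Gclm (chr3:122245557-122270732) encode the catalytic and modifier subunits of glutamate-cysteine ligase, the rate-limiting enzyme. Slc7a11 had 103, 66 and 98 reads over exons in the IL-6 KO-labelled libraries, 3, 2 and 1 in C57BL/6, and 3, 1 and 6 in BALB/c. As levels these were 27.2, 13.4 and 20.8 CPM against 0.460, 0.298 and 0.185 in C57BL/6 and 0.477, 0.166 and 0.971 in BALB/c. Slc7a11 passed the filter on low counts only through the IL-6 KO-labelled libraries, so its presence among the tested genes already depends on that group.

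Slc7a11 differed by a log2 fold change of 5.89 ± 0.515 from C57BL/6 and 5.18 ± 0.479 from BALB/c (SE, adjusted p = 0.000429 and 0.000236, edgeR). The summed reads, 267 against 6 and 10, gave ratios of 61.7 (95% exact binomial interval 28.0 to 170) and 36.8 (19.7 to 77.6), intervals that cover counting error only. BALB/c and C57BL/6 overlapped in Slc7a11 (log2 fold change 0.71 ± 0.725, adjusted p = 0.640, edgeR). Intron reads of Slc7a11 were 12, 58 and 15 in C57BL/6, 14, 15 and 10 in BALB/c, compared with 15, 15 and 9 in the IL-6 KO-labelled libraries. Introns thus took 62.5% to 96.7% of Slc7a11 reads in the C57BL/6 and BALB/c libraries and 8.4% to 18.5% in those labelled IL-6 KO. The intron log2 fold changes of the latter were -0.82 ± 0.472 against C57BL/6 and 0.42 ± 0.521 against BALB/c (SE, adjusted p = 0.230 and 0.604, edgeR). Of their Slc7a11 exon reads, 5, 8 and 3 crossed an exon-exon junction, which is 4.9%, 12.1% and 3.1%.

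Gclc levels were 18.6, 22.9 and 19.1 CPM in C57BL/6, 24.5, 19.9 and 21.4 in BALB/c, as opposed to 86.0, 43.7 and 79.9 in the IL-6 KO-labelled libraries. The lowest IL-6 KO-labelled library, replicate 2, still lay above the other 6 libraries. Gclc rose by a log2 fold change of 1.79 ± 0.242 over C57BL/6 and 1.67 ± 0.240 over BALB/c (SE, adjusted p = 0.000902 and 0.00108, edgeR). Between BALB/c and C57BL/6 the log2 fold change of Gclc was 0.12 ± 0.243 (adjusted p = 0.835, edgeR). Gclc intron reads moved with exon reads, with log2 fold changes of 1.87 ± 0.289 and 1.49 ± 0.276 in the IL-6 KO-labelled libraries (adjusted p = 0.000314 and 0.00119, edgeR).

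Gclm levels were 19.3, 15.3 and 16.3 CPM in C57BL/6, 29.1, 21.1 and 20.6 in BALB/c, compared with 58.1, 31.1 and 47.4 in the IL-6 KO-labelled libraries. The groups followed one another without overlap. The IL-6 KO-labelled libraries were higher than C57BL/6 by a log2 fold change of 1.42 ± 0.242 and than BALB/c by 0.95 ± 0.237 (SE, adjusted p = 0.00235 and 0.0131, edgeR), and the second call was lost without BALB/c replicate 2, BALB/c replicate 3 or IL-6 KO replicate 1 (adjusted p = 0.0533, 0.0521 and 0.0502). BALB/c did not pass against C57BL/6 (log2 fold change 0.47 ± 0.241, adjusted p = 0.322). Of Gclm exon reads 41.6%, 38.9% and 40.9% mapped uniquely in C57BL/6, BALB/c and the IL-6 KO-labelled libraries, the processed pseudogene Gm6061 lies within the gene, and Gm17494 on the opposite strand had 87 reads in all. Whether the counting used strand is not given in the sources used here, so Gclm levels are uncertain. On unique reads alone the Gclm adjusted p was 0.442, 0.00299 and 0.0121 in the 3 comparisons.

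Deposited RPKM values, which are reads scaled to exon length and library size, allow levels to be compared between genes. The ratio of Gclc to Gclm in RPKM was 1.60, 2.50 and 1.96 in C57BL/6, 1.41, 1.58 and 1.74 in BALB/c, against 2.48, 2.35 and 2.81 in the IL-6 KO-labelled libraries. Gclc was the higher of the pair in each library. The IL-6 KO-labelled libraries overlapped C57BL/6 in this ratio and lay above BALB/c, and it rests on the uncertain Gclm reads.

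Gsr (chr8:33652523-33698163) encodes glutathione reductase, which spends NADPH to return oxidised glutathione to its reduced form. Its exon levels were 22.4, 25.6 and 27.6 CPM in C57BL/6, 34.0, 37.7 and 34.8 in BALB/c, compared with 49.6, 29.3 and 43.8 in the IL-6 KO-labelled libraries. C57BL/6 lay below both other groups, and BALB/c lay within the range of the IL-6 KO-labelled libraries. Gsr was higher in the IL-6 KO-labelled libraries than in C57BL/6 by a log2 fold change of 0.70 ± 0.191 (SE, adjusted p = 0.0198, edgeR), a call lost without C57BL/6 replicate 1 or IL-6 KO replicate 1 or 3 (adjusted p = 0.0694, 0.0750 and 0.0718). The other comparisons were not called (BALB/c against C57BL/6 0.49 ± 0.189, adjusted p = 0.197, and IL-6 KO label against BALB/c 0.20 ± 0.188, adjusted p = 0.425), but without IL-6 KO replicate 2 both passed (adjusted p = 0.0440 and 0.0343, edgeR).

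Intron reads of Gsr numbered 22, 18 and 20 in C57BL/6, 36, 17 and 15 in BALB/c, against 77, 111 and 72 in the IL-6 KO-labelled libraries. The log2 fold changes in introns were 2.34 ± 0.285 against C57BL/6 and 2.37 ± 0.281 against BALB/c (SE, adjusted p = 4.32e-05 and 2.15e-05, edgeR). In exon reads the same comparisons gave 0.70 and 0.20, and whether intron and exon differences are unequal was not tested. Introns held 25.8% to 43.5% of Gsr reads in the IL-6 KO-labelled libraries and 6.5% to 14.4% in the others. Gsr overlaps only the small nucleolar RNA gene Gm24727 in the reference annotation, and that gene had 0 reads.

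Txnrd1 (chr10:82859206-82897724) encodes cytosolic thioredoxin reductase and Srxn1 (chr2:152105516-152111376) sulfiredoxin, which repairs over-oxidised peroxiredoxins. Txnrd1 levels were 133, 138 and 125 CPM in C57BL/6, 145, 150 and 146 in BALB/c, as opposed to 282, 179 and 255 in the IL-6 KO-labelled libraries. Srxn1 levels were 32.4, 27.4 and 33.9 CPM in C57BL/6, 34.0, 34.5 and 32.5 in BALB/c, against 73.4, 58.3 and 57.4 in the IL-6 KO-labelled libraries. In both genes the IL-6 KO-labelled libraries lay above the other 6. BALB/c and C57BL/6 overlapped in Srxn1, while each BALB/c library lay above each C57BL/6 library in Txnrd1.

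Txnrd1 rose in the IL-6 KO-labelled libraries by a log2 fold change of 0.85 ± 0.168 over C57BL/6 and 0.70 ± 0.167 over BALB/c (SE, adjusted p = 0.00456 and 0.0109, edgeR). Srxn1 rose by 1.01 ± 0.138 and 0.90 ± 0.138 (adjusted p = 0.000931 and 0.00139, edgeR). BALB/c against C57BL/6 gave 0.16 ± 0.167 for Txnrd1 and 0.11 ± 0.138 for Srxn1 (adjusted p = 0.656 and 0.711, edgeR). Intron reads of Txnrd1 also rose, by log2 fold changes of 1.12 ± 0.234 and 0.87 ± 0.231 (adjusted p = 0.00296 and 0.0137, edgeR). Txnrd1 overlaps Eid3, which had 64 reads in all 9 libraries.

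Hmox1 (chr8:75093621-75100589), which encodes the inducible haem oxygenase, had 84.4, 90.5 and 61.5 CPM in C57BL/6, 84.8, 72.2 and 83.8 in BALB/c, compared with 126, 127 and 105 in the IL-6 KO-labelled libraries. The IL-6 KO-labelled libraries lay above the others, and C57BL/6 and BALB/c overlapped. Among the members called in these comparisons Hmox1 had the smallest differences, 0.60 ± 0.164 against C57BL/6 and 0.57 ± 0.164 against BALB/c on the log2 scale (SE, adjusted p = 0.0200 and 0.0230, edgeR). The first call was lost without C57BL/6 replicate 3 or IL-6 KO replicate 1 (adjusted p = 0.0661 and 0.0648) and in a fit of the compared groups alone (0.0504). The second was lost without any 1 of the BALB/c libraries (adjusted p = 0.0530, 0.103 and 0.0611) or without IL-6 KO replicate 1 (0.0711). Between BALB/c and C57BL/6 the log2 fold change of Hmox1 was 0.03 ± 0.163 (adjusted p = 0.950, edgeR).

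Nqo1 (chr8:107388225-107403206), which encodes a quinone reductase often used as a readout of NRF2, had its lowest levels in the IL-6 KO-labelled libraries. They were 8.90, 7.59 and 12.8 CPM in C57BL/6, 7.78, 18.8 and 15.2 in BALB/c, against 5.54, 5.49 and 6.14 in the IL-6 KO-labelled libraries, which lay below the other 6. Nqo1 was lower in the IL-6 KO-labelled libraries than in BALB/c by a log2 fold change of -1.28 ± 0.342 (SE, adjusted p = 0.0172, edgeR), a call lost without BALB/c replicate 2 or IL-6 KO replicate 1 or 3 (adjusted p = 0.0609, 0.0541 and 0.0519). Against C57BL/6 it was not called (-0.76 ± 0.346, adjusted p = 0.116) except without BALB/c replicate 1 (adjusted p = 0.0389). BALB/c against C57BL/6 gave 0.52 ± 0.321 (adjusted p = 0.415, edgeR).

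Nfe2l2 itself (chr2:75675513-75704641) had 78.1, 82.6 and 78.2 CPM in C57BL/6, 83.1, 87.8 and 78.0 in BALB/c, compared with 61.0, 82.7 and 62.3 in the IL-6 KO-labelled libraries. Replicate 2 of the IL-6 KO-labelled libraries lay within the range of the other groups, and replicates 1 and 3 lay below all other libraries. The log2 fold changes were 0.06 ± 0.136 for BALB/c against C57BL/6, and -0.21 ± 0.138 and -0.27 ± 0.138 for the IL-6 KO-labelled libraries against C57BL/6 and BALB/c (SE, adjusted p = 0.856, 0.253 and 0.146, edgeR). Without replicate 2 the last 2 passed, at -0.37 and -0.43 (adjusted p = 0.0219 and 0.0114, edgeR). NRF2 is controlled mainly through the stability of the protein, which these data do not measure.

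**Figure D2:**
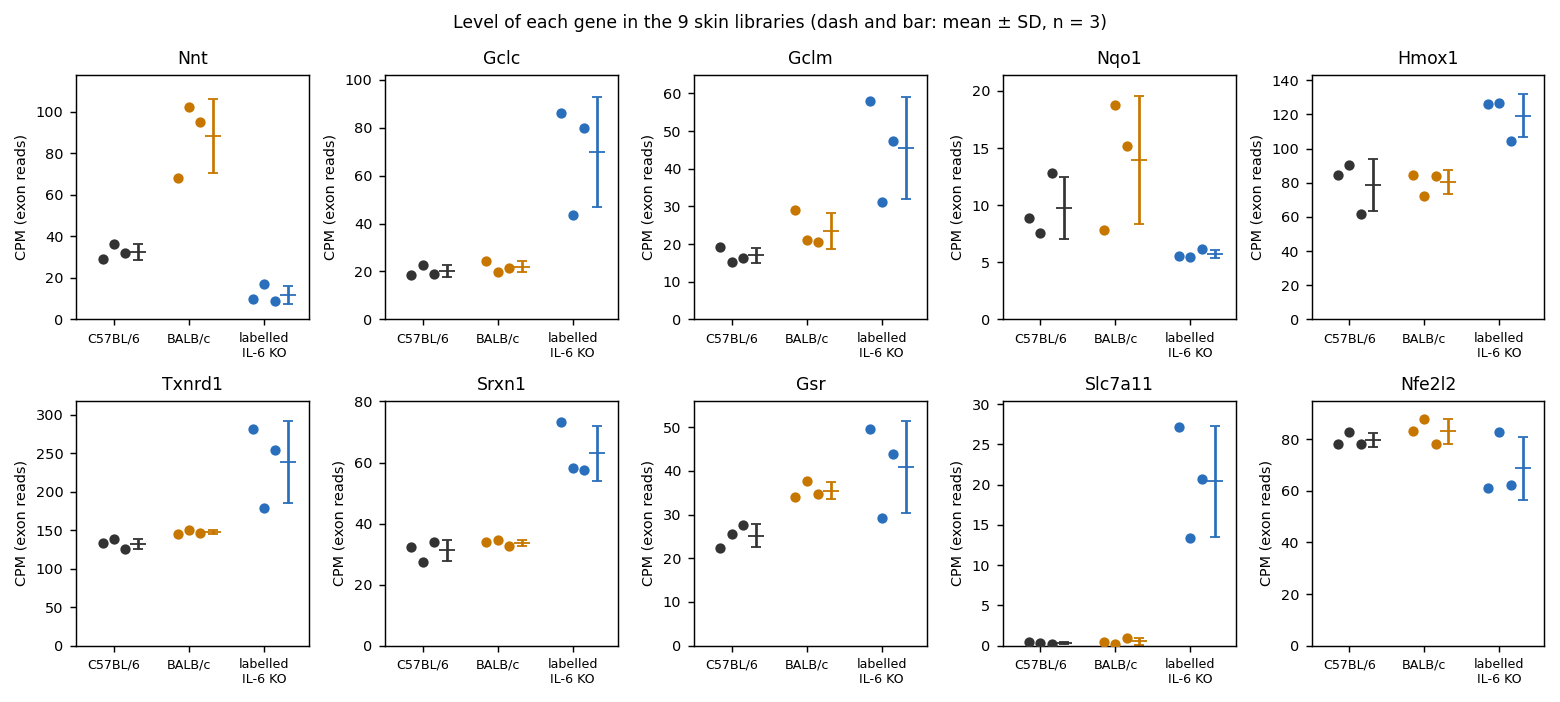
Level of each of the 10 genes in CPM of exon reads (vertical axes, each from 0) in the 9 skin libraries, with 1 point per library and a dash and bar for the mean ± SD of 3. Slc7a11, Gclc, Gclm, Hmox1, Txnrd1 and Srxn1 are higher in each IL-6 KO-labelled library than in the other 6, Nnt and Nqo1 are lower, and within that group replicate 2 (the middle point) is the lowest for Gclc, Gclm, Txnrd1, Gsr and Slc7a11.

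**Figure D3:**
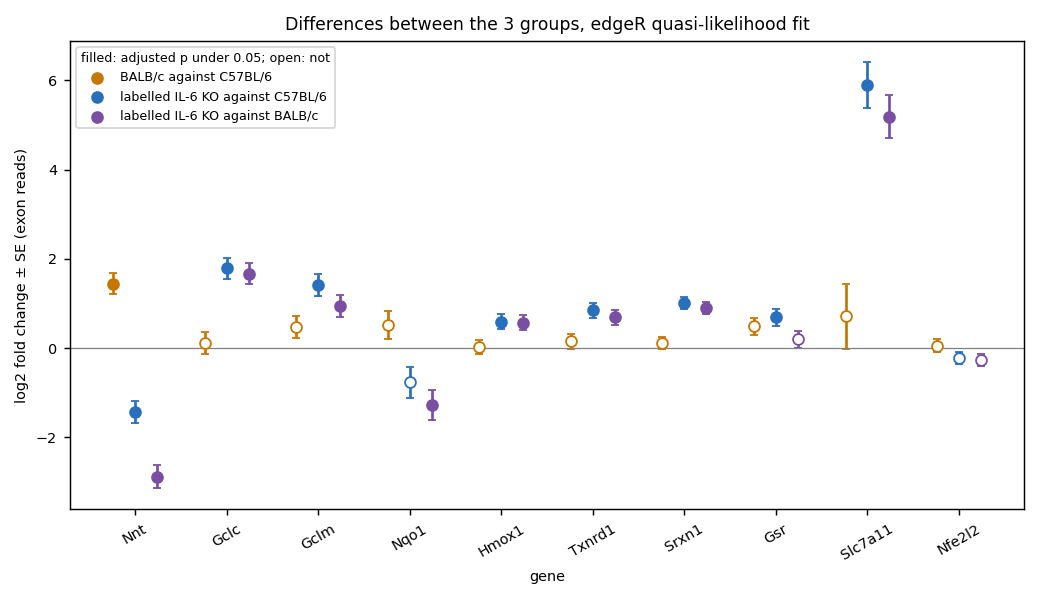
Log2 fold change ± SE of each gene (vertical axis) in the 3 comparisons, from the edgeR fit of exon reads, with filled points called at an adjusted p under 0.05. Nnt alone is called in BALB/c against C57BL/6, at 1.44, and Slc7a11 has the greatest values, 5.89 and 5.18, in the IL-6 KO-labelled libraries.

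In BALB/c against C57BL/6, 1 of the 10 genes was called, Nnt, which was higher, against 3.41% of all 14415 genes tested (1.63% higher and 1.78% lower). Groups did not overlap in 4 of the 10 (Nnt, Gclm, Txnrd1 and Gsr), against 30.2% of all genes. In the IL-6 KO-labelled libraries against C57BL/6, 7 were higher and 1 was lower, against 35.2% of all genes called (19.2% higher and 16.0% lower), and 9 of 10 did not overlap, against 47.5%. Against BALB/c, 6 were higher and 2 lower, where 37.3% of all genes were called (19.9% higher and 17.4% lower), and 8 of 10 did not overlap, against 50.7%. The median log2 fold change of the 10 genes was 0.31, 0.77 and 0.63 in the 3 comparisons, against -0.01, 0.01 and 0.01 over all genes. These counts include Slc7a11, which passed the filter only through the group where it is high. The 10 genes were also chosen with earlier results of these data known, so the counts and medians are a description and test nothing. The 2 comparisons of the IL-6 KO-labelled libraries share those libraries, and each other pair of comparisons also shares a group.

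Without IL-6 KO replicate 2, which had 24 of the Il6 reads, 9 of the 10 genes were called against C57BL/6 and 10 against BALB/c, where 46.1% and 47.8% of all genes were called in the same fit. Without BALB/c replicate 2, 5 were called in the IL-6 KO-labelled libraries against BALB/c (25.8% of all genes), and Nnt lost its call against C57BL/6 as given above. Without IL-6 KO replicate 1 the counts were 6 against C57BL/6 and 5 against BALB/c, with 23.1% and 24.8% of all genes called. In intron reads, 8 of the 10 genes had enough reads to test, Nqo1 and Srxn1 being left out. None of the 8 was called in BALB/c against C57BL/6 with edgeR (0 called and 2 with an unadjusted p under 0.05, where 6.50% of 10378 genes were called). In the IL-6 KO-labelled libraries, 4 were higher against C57BL/6 (23.6% of genes called), and 4 were higher and 1 lower against BALB/c (23.5% called).

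Per length, Nnt took the eighth place among the 10 genes in C57BL/6, the fifth in BALB/c and the ninth in the IL-6 KO-labelled libraries. In C57BL/6, Hmox1 (39.6 ± 9.95 RPKM, SD, n = 3) and Txnrd1 (33.9 ± 3.90) stood first and overlapped, followed by Nfe2l2 (18.3 ± 1.78), and Nnt had 4.05 ± 0.686, overlapping Gclc just above it. In BALB/c the same 3 genes led, and Nnt at 11.3 ± 2.28 RPKM overlapped its neighbours in the order, Gsr at 11.6 and Srxn1 at 10.7. In the IL-6 KO-labelled libraries, Txnrd1 (66.9 ± 11.9 RPKM) and Hmox1 (65.6 ± 7.65) overlapped at the top, and Nnt (1.65 ± 0.675) and Slc7a11 (1.64 ± 0.468) overlapped at the bottom. Slc7a11 was last in each group, at 0.0233 RPKM in C57BL/6 and 0.0410 in BALB/c.

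The other genes of the pathway were read from 6 lists of named genes, all of which were in the tables and tested. In the IL-6 KO-labelled libraries against C57BL/6 and BALB/c, where 35.2% and 37.3% of all genes were called, the shares called were 53.8% and 46.2% of NRF2 regulators, 44.4% and 38.9% of glutathione genes, and 57.1% and 64.3% of thioredoxin system genes. They were 33.3% and 38.1% of other NRF2 targets, 61.5% and 61.5% of mitochondrial genes, and 40.0% and 80.0% of the 5 superoxide and catalase genes. The shares for the glutathione genes and the other NRF2 targets are near those of all genes. So are the 46.2% of NRF2 regulators against BALB/c and the 40.0% of superoxide and catalase genes against C57BL/6. None of the shares was tested. Among 13 factors that control or partner NRF2, 3 were higher and 4 lower in the IL-6 KO-labelled libraries than in C57BL/6, and 2 higher and 4 lower than in BALB/c. In BALB/c against C57BL/6, edgeR called 0 of the 13 (1 at an unadjusted p under 0.05) and DESeq2 1. Keap1, the inhibitor of NRF2, fell from 83.4 ± 5.30 CPM in C57BL/6 and 71.4 ± 4.74 in BALB/c to 49.9 ± 3.91 (SD, n = 3 each), log2 fold changes of -0.74 ± 0.116 and -0.52 ± 0.116 (SE, adjusted p = 0.00156 and 0.00778, edgeR). Nfe2l3, a relative of Nfe2l2, rose from 8.30 ± 3.05 CPM in C57BL/6 to 49.6 ± 17.2 (log2 fold change 2.56 ± 0.325, adjusted p = 0.000695, edgeR), and Bach2, a repressor that competes for the same sites, rose too (1.28 against C57BL/6, adjusted p = 0.00523). The relative Nfe2l1 fell (-0.92, adjusted p = 0.00629). Medians over the 13 were 0.15, 0.11 and -0.11 in the 3 comparisons.

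Among 18 other genes of glutathione supply and use, 6 were higher and 2 lower in the IL-6 KO-labelled libraries than in C57BL/6, and 5 higher and 2 lower than in BALB/c, with medians of 0.21 and 0.05. Slc3a2, which encodes the partner chain of xCT, rose from 80.7 ± 9.22 CPM in C57BL/6 to 173 ± 55.9 (log2 fold change 1.10 ± 0.227, adjusted p = 0.00564, edgeR) and was also higher than in BALB/c (1.41, adjusted p = 0.00181). Chac1, which breaks glutathione down, rose from 18.6 ± 8.50 to 160 ± 83.1 CPM (3.11 ± 0.505, adjusted p = 0.00186, edgeR). Cth, which makes cysteine from cystathionine, and Gpx2, a glutathione peroxidase, rose by 2.35 and 2.69 (adjusted p = 0.00545 and 0.0013). Gpx4, the peroxidase that reduces lipid peroxides, was lower than in BALB/c by a log2 fold change of -1.20 (adjusted p = 0.00182, edgeR). In BALB/c against C57BL/6, edgeR called 1 of the 18 (3 at an unadjusted p under 0.05) and DESeq2 2. The edgeR call was Glrx, a glutaredoxin (30.6 ± 3.42 and 76.1 ± 7.72 CPM, log2 fold change 1.31 ± 0.241, adjusted p = 0.0199), and it was lost without any 1 of the C57BL/6 libraries or without BALB/c replicate 2 or 3 (adjusted p up to 0.0917).

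Among 14 thioredoxins, peroxiredoxins and sestrins, 5 rose and 3 fell in the IL-6 KO-labelled libraries against C57BL/6, and 4 rose and 5 fell against BALB/c, with medians of 0.09 and -0.30. Txn1, cytosolic thioredoxin and the substrate of Txnrd1, rose from 83.5 ± 4.25 CPM in C57BL/6 to 149 ± 28.1 in the IL-6 KO-labelled libraries (log2 fold change 0.84 ± 0.159, adjusted p = 0.00385, edgeR). Sesn3, a sestrin, rose by 1.31 ± 0.228 (adjusted p = 0.00258). Prdx6 and the mitochondrial Prdx3 fell by 0.97 and 0.70 on the log2 scale (adjusted p = 0.0018 and 0.00706). In BALB/c against C57BL/6, edgeR called 0 of the 14 (3 at an unadjusted p under 0.05) and DESeq2 1.

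Of 21 other genes commonly counted as NRF2 targets, 1 was higher and 6 were lower in the IL-6 KO-labelled libraries than in C57BL/6, and 1 higher and 7 lower than in BALB/c, with medians of -0.01 and -0.27. The 1 that rose, G6pdx, makes NADPH in the pentose phosphate pathway and went from 52.2 ± 1.66 CPM to 171 ± 64.2 (log2 fold change 1.71 ± 0.280, adjusted p = 0.00192, edgeR). Gstm1, a glutathione transferase, fell from 140 ± 12.5 CPM in C57BL/6 to 58.1 ± 10.3 (-1.27 ± 0.146, adjusted p = 0.000522, edgeR). Ephx1, an epoxide hydrolase, and Abcc4, an exporter, fell by 1.20 and 1.30 on the log2 scale (adjusted p = 0.00135 and 0.00586). BALB/c exceeded C57BL/6 in Gsta4, another glutathione transferase (2.13 ± 0.433, adjusted p = 0.0320, edgeR), a call lost under 7 of 16 alternatives (adjusted p 0.00019 to 0.113).

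Of 13 genes for other mitochondrial sources of NADPH and mitochondrial redox enzymes, 2 were higher and 6 lower in the IL-6 KO-labelled libraries than in each of the other groups, with medians of -0.67 and -0.77. Me3, the mitochondrial NADP-dependent malic enzyme, fell from 26.6 ± 10.02 CPM in C57BL/6 and 38.2 ± 3.52 in BALB/c to 5.00 ± 0.480 (log2 fold changes -2.40 ± 0.280 and -2.93, adjusted p = 0.000534 and 0.000267, edgeR). Idh2, mitochondrial isocitrate dehydrogenase, fell from 169 ± 58.6 CPM in C57BL/6 to 59.3 ± 11.2 (-1.51 ± 0.278, adjusted p = 0.00338, edgeR). Me2 and Mthfd2 were the members that rose, with Me2 at 1.38 against C57BL/6 (adjusted p = 0.00409). In BALB/c against C57BL/6, edgeR called 0 of these 13 (2 at an unadjusted p under 0.05) and DESeq2 0. Of 5 superoxide dismutase and catalase genes, 2 were lower than in C57BL/6 and 4 than in BALB/c, while 0 were called in BALB/c against C57BL/6 by edgeR or DESeq2 (0 at an unadjusted p under 0.05 in edgeR). Sod1 fell from 150 to 79.6 CPM (-0.91 ± 0.214, adjusted p = 0.0103, edgeR), and the Sod2 call against C57BL/6 (-0.71 ± 0.208, adjusted p = 0.0259) was lost without C57BL/6 replicate 3 or IL-6 KO replicate 2 or 3 (adjusted p up to 0.0988).

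**Figure D4:**
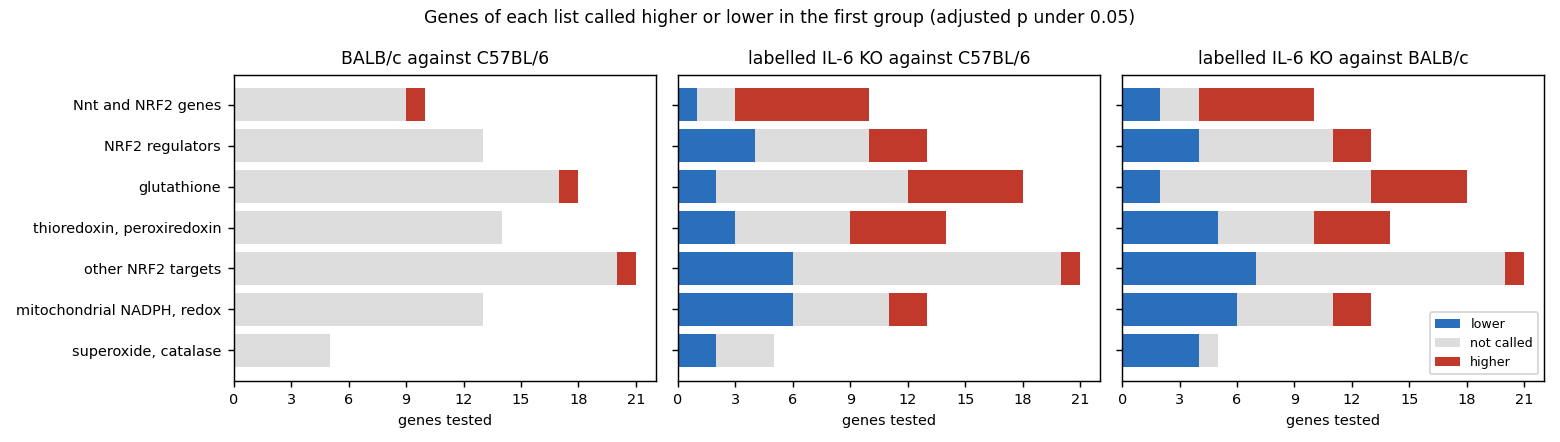
Number of genes tested (horizontal axis) in the 10 genes and in 6 lists of related genes, split into called higher, called lower and not called in the first-named group, for the 3 comparisons. The 10 genes, chosen with earlier results known, have 7 higher and 1 lower in the IL-6 KO-labelled libraries against C57BL/6, the other NRF2 targets 1 higher and 6 lower. Of all genes, 35.2% were called in that comparison, near the 33.3% of the other NRF2 targets.

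Markers of some cell types, growing hair follicle, melanocytes and skeletal muscle, also differed between the IL-6 KO-labelled libraries and the others. All 10 growing hair follicle markers, among them hair keratins, were called higher in the IL-6 KO-labelled libraries than in both other groups. Of all genes, 19.2% and 19.9% were called higher there against C57BL/6 and BALB/c, and 16.0% and 17.4% lower. Some markers had few reads elsewhere, such as Krt71 with 1009, 176 and 1 in C57BL/6 and 24, 1 and 0 in BALB/c. All 10 had reads in each of the IL-6 KO-labelled libraries, against 9 in C57BL/6 and 5 in BALB/c. Replicate 2, with the lowest follicle sum of those libraries (14837 CPM), also had their lowest Slc7a11, Gclc, Gclm, Txnrd1 and Gsr and their highest Nnt and Nfe2l2. The other 3 genes did not follow that order: replicate 2 had the highest Hmox1 of those libraries (127 CPM, against 126 and 105), the lowest Nqo1 (5.49, against 5.54 and 6.14), and an Srxn1 level (58.3) between those of replicate 3 (57.4) and replicate 1 (73.4). Between BALB/c and C57BL/6 the follicle sums were 23.7, 9.13 and 11.0 CPM against 630, 128 and 13.0 CPM, with 0 of the 10 markers called by edgeR, 6 at an unadjusted p under 0.05 and 2 called by DESeq2. Follicle markers thus ran lower in BALB/c than in C57BL/6 replicates 1 and 2, while C57BL/6 replicate 3 lay within the BALB/c range. Nnt was at 31.9 CPM in that replicate, against 68.3 to 102 CPM in BALB/c. This is 1 library, and its skeletal muscle markers (92299 CPM) also lay outside the BALB/c range. Whether follicle content bears on the Nnt difference was not tested. The 6 melanocyte markers summed to 786, 101 and 875 CPM in the IL-6 KO-labelled libraries and to 30.4 to 50.9 CPM in the others, with 6 of 6 called higher in both comparisons. The 8 skeletal muscle markers summed to 8747 to 9782 CPM, against 52099 to 92299 in C57BL/6 and 24566 to 51589 in BALB/c, with 8 and 7 called lower. No marker was at 0 in all libraries of a group. The part of these cell types in the levels above was not tested, and in bulk skin fewer cells of a type and less RNA per cell cannot be told apart.

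Fewer of the other markers were called. Of all genes, 35.2% and 37.3% were called in the IL-6 KO-labelled libraries against C57BL/6 and BALB/c. In BALB/c against C57BL/6 the share was 3.41%. The 8 keratinocyte markers summed to 7690 to 24439 CPM in the IL-6 KO-labelled libraries, 14558 to 23473 in C57BL/6 and 20298 to 24086 in BALB/c, with 1 and 3 called lower. Of 6 macrophage markers, 0 were called by edgeR in each comparison (0 or 1 at an unadjusted p under 0.05, and 1 by DESeq2 against BALB/c, with sums of 460 to 1389, 490 to 1072 and 624 to 994 CPM in the same order), and of 6 fibroblast and 5 red blood cell markers edgeR and DESeq2 called 0 (at most 2 at an unadjusted p under 0.05 in edgeR). Of 6 adipocyte markers, 3 were lower than in BALB/c, and of 5 endothelial markers 4 were lower than in C57BL/6. Sebaceous gland markers summed to 716 to 1749 CPM in the IL-6 KO-labelled libraries, 1267 to 2315 in C57BL/6 and 1352 to 5267 in BALB/c. Of these 6, Elovl3 and Scd3 were called higher in BALB/c than in C57BL/6 by edgeR, and in the same comparison the endothelial marker Vwf was called lower. In the IL-6 KO-labelled libraries Elovl3 was called higher and Scd3 lower than in both other groups, and Far2 lower than in BALB/c. These 4 genes were named after their values had been seen.

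**Figure D5:**
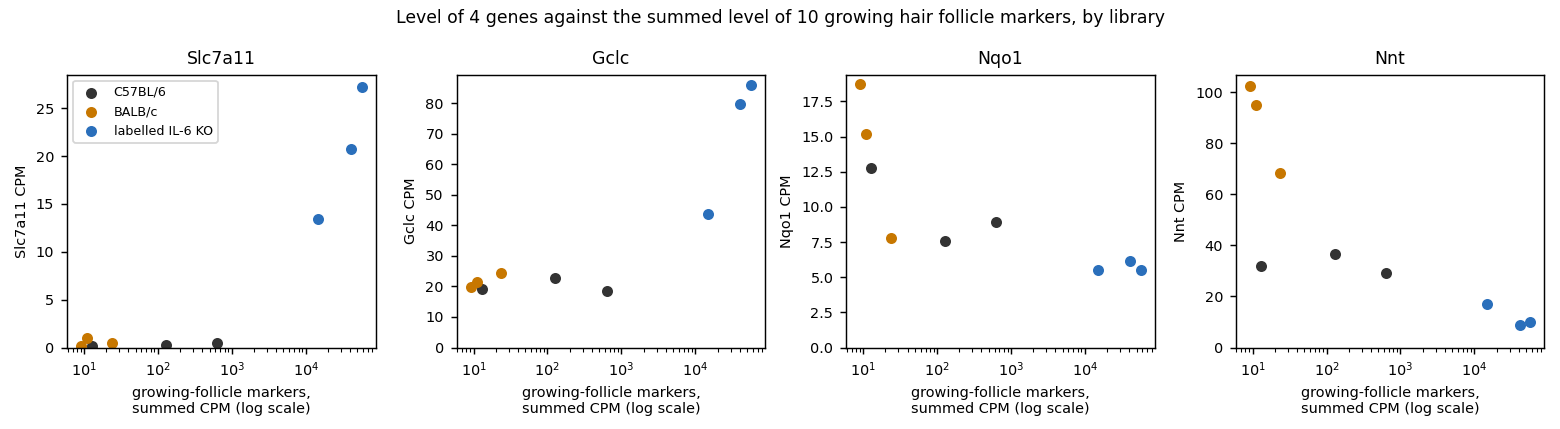
Level of Slc7a11, Gclc, Nqo1 and Nnt in CPM (vertical axes) against the summed level of 10 growing hair follicle markers in CPM (horizontal axes, log scale), with 1 point per library. The IL-6 KO-labelled libraries, at 14837 to 57172 CPM of follicle markers, are apart from the other 6, at 9.13 to 630 CPM. The marker sums are 630, 128 and 13.0 CPM in C57BL/6 and 23.7, 9.13 and 11.0 CPM in BALB/c, so these groups overlap only through C57BL/6 replicate 3.

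Genes with the most similar pattern over the 9 libraries were found by Pearson's r of log2 CPM, which is given as a description only because the libraries fall into 3 groups. Among 11843 genes with a mean of at least 5 CPM, those most like Nnt were H2-Q5 (0.986), Tnk1 (0.985), Aaed1 (0.982), Ufl1 (0.977) and Phf20 (0.976). The size of a change does not enter r. Ufl1 was not called in any comparison (log2 fold changes 0.14, -0.11 and -0.25, edgeR). Aaed1 and Phf20 were called only in the IL-6 KO-labelled libraries against BALB/c. Among 11835 genes, those most like the mean of the other 9 genes were Rtkn2 (0.995), Tmem41b (0.992), Cenpf (0.992), Dnase1l2 (0.991) and Uchl3 (0.989). Rtkn2 reached the mean of 5 CPM only through the IL-6 KO-labelled libraries (17.8 CPM, against 0.539 in C57BL/6 and 2.11 in BALB/c). H2-Q5, a class I histocompatibility gene, belongs to a multigene family whose reads may be split between copies.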

How the data were processed

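RNA from skin was measured by total RNA sequencing in 9 libraries, 3 per group. The genome build was GRCm38 according to the submitters' processing notes, and which aligner was used is not given in the sources used here. Total exon reads, deposited by the authors as raw counts per gene, were analysed, with intron reads apart. The first of the 3 stacked tables of C57BL/6 replicate 1 was used. Deposited RPKM values, computed by the authors, served only for levels between genes.

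Genes with low counts were removed (edgeR 4.0.16, minimum count 10, minimum total 15), leaving 14415 genes, and 10378 in intron reads. Library totals were scaled by TMM, which also gives the CPM printed here. All 9 libraries entered 1 quasi-likelihood model, with Benjamini-Hochberg adjustment over all genes and a threshold of 0.05. SE is the log2 fold change divided by the square root of F. The script was tested on simulated data. DESeq2 1.42.0, other scalings, no filter, unique reads, the replicate number as a block, only the compared groups and leaving out each library were alternatives.

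The 10 genes and the gene lists were chosen with earlier results of these data known. From each pathway list, up to 4 called genes with the smallest p in a comparison could be named, with the neighbours of Nnt and the 5 genes most like each pattern.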

Additional observations from a re-analysis of the deposited data

How the results depend on the processing

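In BALB/c against C57BL/6, 1 of the 10 genes was called under each alternative that kept all libraries, and 0 to 2 when 1 library was left out. In the IL-6 KO-labelled libraries, 8 were called against C57BL/6 (6 to 9 with 1 library left out, 7 in a fit of the compared groups alone) and 8 against BALB/c (5 to 10 with 1 left out). The exon to intron ratio of Nnt kept its direction with 1 library left out, at 0.377 to 0.768, -1.28 to -0.886 and -1.80 to -1.49 in the order of the report. The sign of Hmox1 in BALB/c against C57BL/6, which was not called, ran from -0.12 to 0.14 with 1 library left out and turned without C57BL/6 replicate 3 (-0.12), BALB/c replicate 1 (-0.01) or BALB/c replicate 3 (-0.01). Single list genes were followed over the alternatives only if they were among the up to 4 with the smallest p in their list. Of these, calls against BALB/c that were lost under at least 1 alternative were those of Cat, Fth1, Prdx4, Sod1, Sod3 and Sqstm1. The cause was not tested, and the stability of the other list calls was not examined gene by gene. With the exon reads' totals and factors, the intron calls were 0, 5 and 5 in place of 0, 4 and 5. In the compared groups alone, Slc7a11 did not pass the filter for BALB/c against C57BL/6 and has no value there.

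Over all genes, BALB/c against C57BL/6 gave 491 calls, 1033 with DESeq2 and 167 to 977 with 1 library left out; the IL-6 KO-labelled libraries gave 5068 against C57BL/6 (3238 to 6805) and 5370 against BALB/c (3310 to 7044). Scaling by library size alone moved the median of all genes in the IL-6 KO-labelled libraries against C57BL/6 from 0.01 to 0.15 and the share of calls that were higher from 54.6% to 67.7%, and in BALB/c against C57BL/6 that share from 47.9% to 58.6%. The 10 genes kept 1, 8 and 8 calls under it. Libraries of 1 number did not deviate together (correlations of -0.212 to 0.0617). No pairing by replicate number was thus seen, but deviations from means of 3 libraries cannot exclude a weak one. With the number as a block, 1, 8 and 8 of the 10 genes were called, and 255 genes in all in BALB/c against C57BL/6. Depth limits Slc7a11 in C57BL/6 and BALB/c, at 1 to 6 reads a library, and the introns of Nqo1, Srxn1 and Gclm.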
